A study of Mus musculus with 8 samples.

Results

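The 4 libraries described here hold RNA bound to tagged ribosomes of D1 receptor cells in the dorsal striatum, and they are the libraries of the 8 in the series whose titles name that region. All came from Drd1-EGFP/Rpl10a mice of the line CP73, older than 20 months and given no treatment. In these animals the Drd1 promoter drives a fusion of the ribosomal protein L10a with enhanced green fluorescent protein, and tagged polysomes were pulled out of dissected tissue with antibodies against that protein. The remaining 4 libraries came from the accumbens and were not used. The labels number the libraries 1 to 4 and do not say whether each came from 1 mouse or a pool, so the spread given below is that between libraries. No unpurified striatal RNA and no young mice were analysed here, so neither enrichment by the pulldown nor a change with age was measured.

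Spiny projection neurons make up most of the striatum. Those of the direct pathway carry the D1 receptor and the peptide precursors Tac1 and Pdyn, and those of the indirect pathway carry the D2 receptor, the adenosine receptor Adora2a and Penk. Dopamine at the D1 receptor raises cyclic AMP through the G protein subunit encoded by Gnal and the adenylyl cyclase Adcy5, which activates protein kinase A and its substrate DARPP-32, the product of Ppp1r1b. Phosphodiesterases such as Pde10a break the cyclic nucleotides down again.

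Gene counts ran from 7466970 to 10363145 per library, and 14546 to 16223 of 32532 gene symbols had at least 1 count. Counts were scaled to a sum of 1000000 in each library (CPM). A count of 3, taken as the floor of detection, equalled 0.289 to 0.402 CPM and covers counting error only. At least 1 CPM was reached in every library by 10740 symbols, and 105 symbols averaged at least 1000 CPM. The libraries were correlated across all symbols with Spearman's rho of 0.931 to 0.940, as a description over genes, which are not independent replicates. Because each library pools many cells, fewer cells of a type and less RNA per cell cannot be told apart in any of the values below.

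The 5 marker genes were present in every library, as were the other genes of the direct pathway list. Of the 5, Drd1, Tac1 and Pdyn are on that list. Ppp1r1b and Pde10a are on the list shared by all spiny projection neurons and do not set the direct and indirect pathways apart. Drd1 itself (chromosome 13, 54051183 to 54055705 of GRCm38, minus strand) had 624, 535, 560.2 and 656 CPM in libraries 1 to 4, or 594 ± 55.7 CPM (SD, n = 4). The 4 values lay close together, with libraries 4 and 1 above libraries 3 and 2, and placed Drd1 at rank 253 of all symbols. Divided by merged exon length and rescaled to a sum of 1000000, Drd1 stood at 868 ± 66.8 per kilobase (SD, n = 4) and rank 127. The 203 bases upstream of the Drd1 transcripts are shown because this gene's promoter defines the tagged cells. They are RefSeq's sequence of GRCm38.p6, chr13:54055706-54055908, minus strand, 5′ to 3′, and hold no copy of TGACG or its reverse complement CGTCA, the core bound by the cyclic AMP factor CREB, which would be in capitals.
Drd1: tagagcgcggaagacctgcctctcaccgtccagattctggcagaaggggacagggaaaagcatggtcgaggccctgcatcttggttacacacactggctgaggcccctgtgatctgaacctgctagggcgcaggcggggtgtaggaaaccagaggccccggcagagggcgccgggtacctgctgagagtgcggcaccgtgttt

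Tac1, the precursor of substance P (chromosome 6, 7554879 to 7565834), had 317, 299, 245 and 300.5 CPM in libraries 1 to 4. Pdyn, the precursor of dynorphin (chromosome 2, 129686565 to 129699844), had 242, 232, 197 and 158 CPM. Tac1 varied little apart from a lower value in library 3, whereas Pdyn was lowest in library 4 and highest in library 1, a range of 1.53-fold. Ppp1r1b (chromosome 11, 98348404 to 98357796) had 2148, 1641, 1439 and 1359 CPM, with library 1 well above the other libraries. Pde10a (chromosome 17, 8525372 to 8986648) had 2955, 2830.2, 2549 and 2645 CPM and varied little (CV, the SD as a percent of the mean, 6.65%). Per kilobase the order was Ppp1r1b at 2983 ± 616, Pde10a at 1134 ± 67.7, Drd1 at 868 ± 66.8, Tac1 at 453 ± 42.8 and Pdyn at 381 ± 71.1 (SD, n = 4 each). Tac1 exceeded Pdyn in all 4 libraries by 1.06 to 1.62 times per kilobase, although their means differed by about the spread between libraries. Scaling by length changed the ranks, since Pde10a ranked 18 by CPM and 91 per kilobase, while Ppp1r1b ranked 49 and 22.

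**Figure D1:**
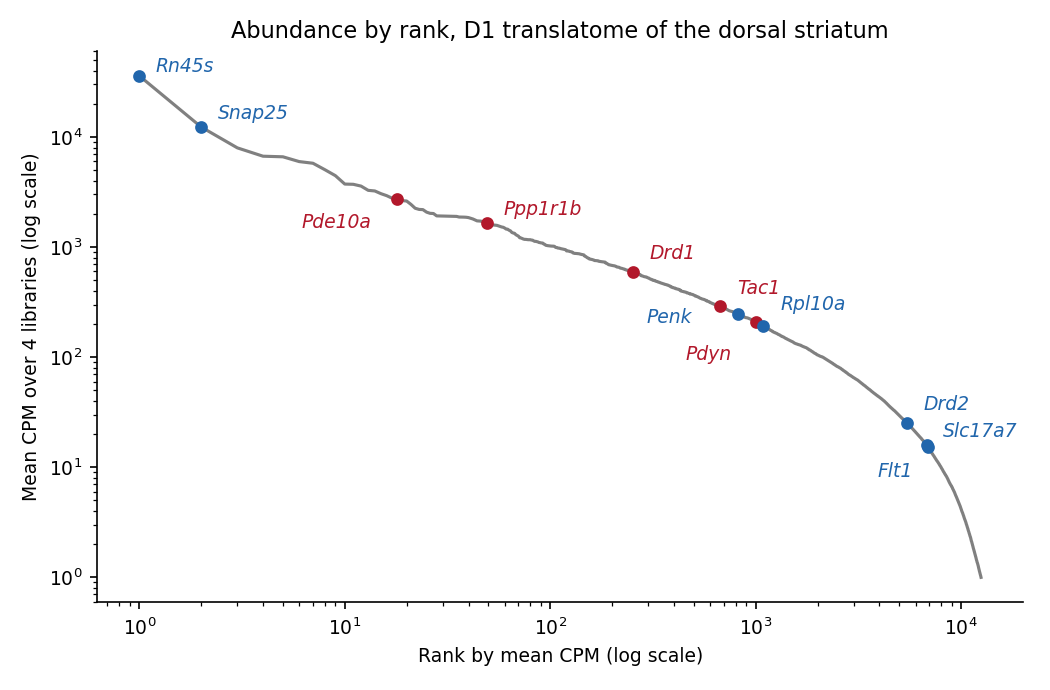
Mean CPM over the 4 libraries against rank, both on log scales, for symbols averaging at least 1 CPM. Red points are the 5 marker genes, from Pde10a at rank 18 to Pdyn at rank 1005. Blue points are other genes named in the text, with Drd2 at rank 5431.

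The direct pathway list held 9 genes. All averaged at least 5 CPM and 5 at least 100 CPM, against 9616 and 2116 of all 32532 symbols. Eya1, a transcriptional cofactor and phosphatase, had more counts than Drd1 in every library, at 813, 839, 829 and 957 CPM. Per kilobase of merged exons it was below Drd1, at 584 ± 39.9 against 868 ± 66.8 (SD, n = 4 each). Per kilobase of the longest transcript it ranked above Drd1, at 146 against 182, so their order depends on the scale. Sfxn1, a mitochondrial serine transporter, averaged 228 ± 30.7 CPM, and Ebf1, a transcription factor of direct pathway neurons, 98.2 ± 4.91 CPM. The muscarinic receptor gene Chrm4 averaged 55.7 ± 12.2 CPM, Slc35d3 54.5 ± 15.7 CPM and the transcription factor Isl1 30.7 ± 12.03 CPM. Of these genes Isl1 differed most between libraries, with 34.8, 25.98, 16.9 and 44.97 CPM and its lowest value in library 3.

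Indirect pathway genes were low apart from Penk. Drd2 had 31.7, 32.3, 15.4 and 22.4 CPM, with libraries 1 and 2 above libraries 4 and 3. The Drd1 count was 19.7, 16.6, 36.4 and 29.3 times the Drd2 count in libraries 1 to 4, and per kilobase the ratio averaged 17.9 ± 6.36 (SD, n = 4). On that scale the ratio differed 2.19-fold between libraries 2 and 3. Adora2a, an adenosine receptor gene, had 9.02, 9.69, 4.55 and 8.395 CPM, the orphan receptor gene Gpr52 5.78, 4.37, 4.96 and 6.47 CPM and the transcription factor gene Sp9 5.44, 5.54, 8.71 and 6.85 CPM. All 3 stayed under 10 CPM in every library. Gpr6, another orphan receptor gene, was at 5.44, 2.34, 0 and 0.772 CPM and so without a count in library 3, and Upb1 was at 0.463, 2.24, 0 and 0 CPM. Summed over the lists, direct pathway genes had 8.46 ± 1.48 times the CPM of indirect pathway genes (SD, n = 4). These sums are not scaled by length, and the ratio of the lists was not computed per kilobase. On merged exons Penk stood at 793 ± 131 per kilobase against 868 ± 66.8 for Drd1, so the size of the ratio depends on the scale.

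Penk, the precursor of enkephalin and a defining transcript of indirect pathway neurons, did not follow the low level of Drd2 and Adora2a. It had 269, 275, 183 and 251 CPM in libraries 1 to 4, and 83.5% of the summed CPM of the indirect list came from it. Tac1 exceeded Penk by CPM in all 4 libraries (1.18, 1.08, 1.34 and 1.198 times). Per kilobase of merged exons the order turned, at 0.567, 0.521, 0.644 and 0.576 times, and per kilobase of the longest transcript Tac1 reached 0.866, 0.795, 0.983 and 0.879 times Penk. On either length Penk was above the level of Tac1 in every library and, on merged exons, close to Drd1 (793 ± 131 against 868 ± 66.8). An exon of Penk overlaps the antisense gene A830012C17Rik, and the strand setting of the counting was not given in the sources used here, so reads of that gene and of Penk cannot be told apart. Library 3 had the lowest value of Penk, Drd2 and Adora2a alike.

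**Figure D2:**
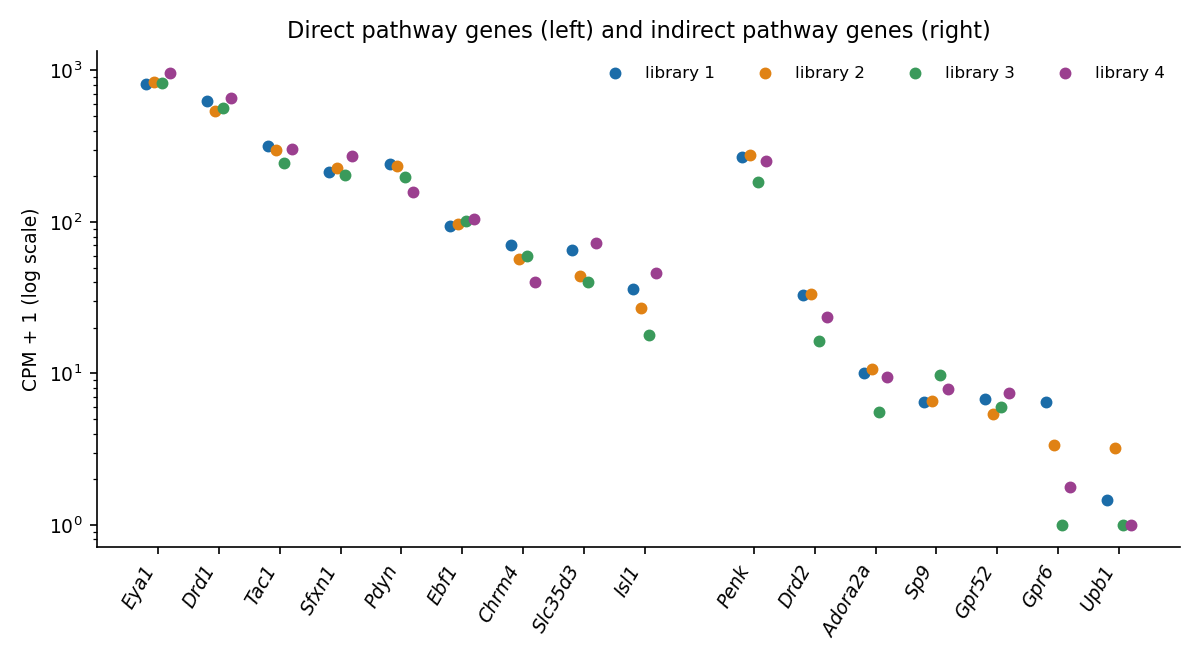
CPM plus 1 on a log scale for the 9 direct pathway genes (left) and the 7 indirect pathway genes (right), 1 point per library. All direct pathway genes lie above Adora2a, Sp9, Gpr52, Gpr6 and Upb1 in every library, while Penk lies among them.

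Among dopamine receptors Drd3 had 7.29, 10.9, 7.77 and 4.25 CPM, Drd4 no more than 0.106 CPM and Drd5 no more than 0.386 CPM. Drd4 was therefore under the floor in every library, and the D5 receptor, the other receptor of the D1 class, was at or near it. Of 16 neuropeptide precursors 8 averaged at least 1 CPM, 3 of them (Tac1, Penk and Pdyn) at least 100 CPM, and Vip, Pnoc, Adcyap1 and Trh had no count in any library. Among all 32532 symbols 12480 and 2116 reached these levels, and 14688 had no count in any library. Sst, a peptide of striatal interneurons, had 33.4, 39.9, 18.3 and 37.6 CPM and its lowest value in library 3. Cartpt had 7.75, 8.84, 3.48 and 7.72 CPM and Nts 2.43, 9.69, 1.74 and 7.91 CPM. Library 2 was highest in 6 of the 8 precursors at 1 CPM or more, against 23.4% of all 12480 symbols at that level.

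All 43 listed members of the D1 receptor cascade averaged at least 5 CPM and 32 at least 100 CPM, against 9616 and 2116 of all 32532 symbols. The list was chosen with earlier results of these data known, so these counts describe the list. Gnal, encoding the stimulatory G protein subunit of the striatum, had 2886, 2943, 3273 and 3093 CPM, a CV of 5.68%. Gnas, encoding the related subunit used in most other tissues, had 133, 245, 146 and 207 CPM, and per kilobase Gnal exceeded it 17.8 ± 5.11 times (SD, n = 4). Both genes have an overlapping partner on the other strand, Mppe1 at Gnal and Nespas at Gnas, and their order was the same in all 4 libraries. Among the other subunits Gnb1 averaged 753 ± 142 CPM and Gng7, the partner of the Gnal product, 873 ± 116 CPM. Gnb2 was low and uneven, at 23.6, 15.2, 13.8 and 5.31 CPM. Ric8b, a chaperone of the Gnal product, averaged 234 ± 21.6 CPM.

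Of the 5 cyclase genes listed, Adcy5 had the most counts, at 566, 545, 459 and 384 CPM, highest in library 1 and lowest in library 4. Adcy9 averaged 199 ± 22.4 CPM and Adcy1 93.4 ± 22.9 CPM. Per kilobase Adcy5 stood at 361 ± 62.4, Adcy9 at 204 ± 26.5 and Adcy1 at 39.7 ± 10.4 (SD, n = 4 each), in the same order. Adcy2 and Adcy3 each averaged 14.5 CPM.

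Protein kinase A was carried mainly by 2 catalytic and 4 regulatory genes. Prkacb had 1067, 1023, 1124 and 1457 CPM and Prkaca 304, 253, 205 and 296 CPM, a per-kilobase ratio of 1.27 ± 0.249 (SD, n = 4) that was just under 1 in library 1. Per kilobase of the longest transcript Prkacb stood at 1.84, 2.12, 2.87 and 2.57 times Prkaca in libraries 1 to 4, so the size of the difference depends on the length used. Of the regulatory genes Prkar1a averaged 751 ± 95.7 CPM, Prkar1b 305 ± 47.3 CPM, Prkar2b 159 ± 19.3 CPM and Prkar2a 61.2 ± 9.54 CPM. Ppp1r1b was accompanied by 2 other cyclic AMP-regulated phosphoproteins. Arpp21 had 3005, 2504, 2741 and 3445 CPM, rank 16 of all symbols, and Arpp19 had 720.4, 598, 754 and 986 CPM. Both were highest in library 4, in which Ppp1r1b was lowest.

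Among the phosphatase genes of the cascade list, genes of calcineurin had the most counts. Its catalytic gene Ppp3ca had 4495, 3725, 4808 and 4742 CPM and ranked 9, and its regulatory gene Ppp3r1 had 1879, 1505, 1823 and 2189 CPM. The second catalytic gene Ppp3cb had 87.6, 79.3, 113 and 117 CPM, so that Ppp3ca exceeded it 39.99 ± 4.28 times per kilobase (SD, n = 4). Among the catalytic genes of protein phosphatase 1, which the phosphorylated Ppp1r1b product inhibits, Ppp1cb averaged 306 ± 40.9 CPM, Ppp1ca 69.3 ± 9.64 CPM and Ppp1cc 67.5 ± 4.12 CPM. Per kilobase these 3 lay at 149 ± 17.5, 146 ± 18.7 and 105 ± 8.09 (SD, n = 4 each), and the first pair could not be separated from each other by their spread. Ptpn5, the striatum-enriched tyrosine phosphatase, averaged 563 ± 29.6 CPM.

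Besides Pde10a, Pde7b had 694, 684, 714 and 836 CPM and the calcium-dependent Pde1b 785, 743, 611 and 576 CPM. Pde4b averaged 535 ± 81.9 CPM, Pde2a 427 ± 57.2 CPM and Pde8b 189.9 ± 13.6 CPM. Per kilobase Pde10a was first at 1134 ± 67.7 and Pde1b second at 668 ± 97.5 (SD, n = 4 each). Pde10a alone held 45.8% of the counts of all 22 cyclic nucleotide phosphodiesterase genes.

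Brakes on G protein signalling were also abundant. Rgs4 had 1284, 1063, 1074 and 978 CPM and was highest in library 1. Rgs9, whose striatal form shortens signals of dopamine and opioid receptors, had 403, 444, 481 and 429 CPM, and its partners Gnb5 and Rgs7bp averaged 236 ± 43.5 and 882 ± 85.8 CPM. Among later steps Mapk3 averaged 132 ± 18.4 CPM, the exchange factor gene Rasgrp2 67.7 ± 10.8 CPM and Creb1 73.4 ± 14.8 CPM. Over the whole cascade the summed CPM was 31966, 29081, 30741 and 32992 in libraries 1 to 4, a CV of 5.40%.

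By counts, 10 symbols held 9.45% ± 1.44 of all gene counts, 100 held 24.5% ± 1.12 and 1000 held 61.0% ± 0.435 (SD, n = 4). It took 574.5 ± 18.3 symbols to reach 50% of the counts. The first rank went to Rn45s, the precursor of ribosomal RNA, at 58361, 41767, 23996 and 19123 CPM. It was highest in library 1 and lowest in library 4, a 3.05-fold range. Snap25, a core protein of vesicle fusion (chromosome 2, 136713453 to 136782428), followed with 12422, 12538, 12394 and 11792 CPM and a CV of 2.73%. Calm2, encoding calmodulin, had 7650.0, 6665, 8027 and 9432 CPM, Ndrg4 6077, 5856, 7554 and 7201 CPM and the nuclear noncoding RNA Malat1 6434, 6195, 7038 and 6692 CPM. Prkcb, a calcium-activated protein kinase C, had 4492, 5318, 6509 and 7531 CPM and was highest in library 4 and lowest in library 1, opposite to Rn45s. Among the next ranks were Ywhaz, Map1b, Ppp3ca, Arf3, Camk2a and Cplx2, from 5759 to 3269 CPM on average. Lars2, Gnal, Arpp21, Gapdh, Pde10a, Atp2b1 and Fkbp1a were also among the first 20, of which 4 (Ppp3ca, Gnal, Arpp21 and Pde10a) belonged to the D1 cascade.

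Per kilobase Calm2 came first at 28724 ± 3893 (SD, n = 4), 2.99 times Snap25 at 9609 ± 397. Ywhaz, a 14-3-3 protein, stood at 7418 ± 677, Ndrg4 at 7244 ± 953, Malat1 at 5012 ± 322 and the calcium sensor Hpca at 4424 ± 655. An exon of Hpca overlaps Tmem54 on the other strand. Other genes entered the first 20 on this scale, among them Ywhae, Ctxn1, Actb, Hsp90ab1, Ldhb and Atp1b1, at 4279, 3970.1, 3606, 3361, 3279 and 3102 per kilobase. The median longest transcript of the first 100 protein-coding genes was 5375 bases by CPM and 2838.5 bases per kilobase, against 3636 bases for 11601 protein-coding genes averaging at least 1 CPM.

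The second place per kilobase belonged to Mir6236 (chromosome 9, 110281287 to 110281409, plus strand), a microRNA locus whose annotated exon spans only 123 bases. It had 498, 335, 292 and 89.1 CPM in libraries 1 to 4, or 13116 ± 7176 per kilobase (SD, n = 4). The libraries fell in the same order as for Rn45s, with library 1 highest and library 4 lowest. Its mature sequence from RefSeq (GRCm38.p6, chr9:110281353-110281371, plus strand) is shown because so short a locus took this rank. The seed, bases 2 to 8, is in capitals.
mmu-miR-6236: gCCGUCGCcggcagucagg
The counts are of reads over the locus and not of the mature microRNA, which was not measured.

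By annotated type, protein-coding genes held 93.98% ± 1.63 of the counts (SD, n = 4), from 92.04% in library 1 to 95.6% in library 4, Rn45s 3.58% ± 1.79 and long noncoding genes 1.07% ± 0.0476. Symbols with no GENCODE match held 1.29% ± 0.199, led by AK140265 at 983, 2630.2, 1547 and 1487 CPM. Malat1 provided 61.9% of the long noncoding counts. Meg3, an imprinted noncoding RNA, had 528, 884, 622 and 433 CPM and was highest in library 2, and Peg13, also imprinted, had 537, 489, 528 and 641 CPM. Tug1 averaged 148 ± 25.3 CPM, Rian 57.8 ± 3.11 CPM, Cep83os 57.6 ± 10.7 CPM, Gas5 49.7 ± 1.79 CPM, Fam219aos 43.5 ± 13.8 CPM and Dalir 22.96 ± 11.1 CPM.

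Classes defined by gene symbol were then summed, 27 classes of 2343 genes that held 28.7% of all gene counts. The machinery of vesicle release held the largest share of them, 3.46, 3.54, 3.49 and 3.58 percent in libraries 1 to 4, or 3.52% ± 0.0535 (SD, n = 4). Snap25 made up 34.9% of it, and Cplx2 and Vamp2 averaged 3269 and 2013 CPM. CaM kinases with protein kinases A and C held 1.83, 2.08, 2.24 and 2.45 percent, highest in library 4 and lowest in library 1. Prkcb, Camk2a, Camk4 and the inhibitor gene Camk2n1 led this class, with 1913 and 1689 CPM for the latter pair. Protein phosphatases and their regulators held 2.01% ± 0.1199 and calmodulins with calcium sensors 1.84% ± 0.1202. On the per-kilobase scale the calmodulin class held 4.63% of the total and was the largest, and vesicle release stood at 3.16%. The calmodulin genes encode the same protein.

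**Figure D3:**
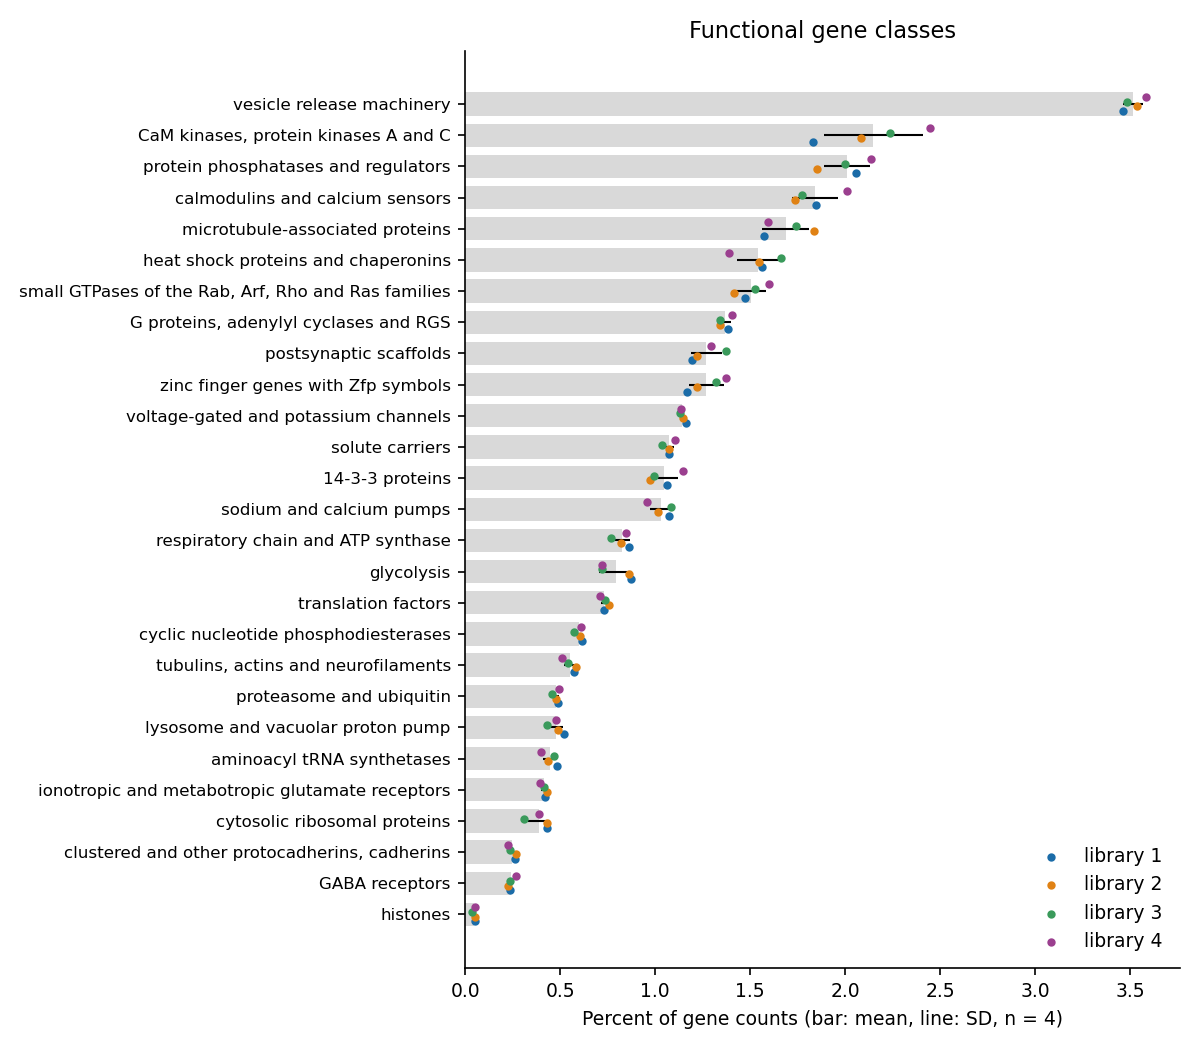
Percent of gene counts in 27 classes defined by gene symbol. Bars are means and black lines SDs over 4 libraries, and points are the libraries. The machinery of vesicle release leads at 3.52%, and the kinase class shows the widest spread between libraries.

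Microtubule-associated proteins held 1.69% ± 0.124, with Map1b at 5032 CPM and Map1a at 2022 CPM. Chaperones held 1.54% ± 0.112 (Fkbp1a, Hsp90ab1, Hsph1 and Hspa8), and small GTPases 1.504% ± 0.0777 (Arf3, Rab6b, Rac1 and Rab7). G proteins with cyclases and RGS proteins held 1.37% ± 0.0303, of which Gnal was 22.3%. Postsynaptic scaffolds held 1.27% ± 0.0797, led by Ppp1r9a and Akap5, and voltage-gated and potassium channels 1.14% ± 0.0158, led by Scn4b, the sodium channel subunit of striatal projection neurons, at 751 ± 115 CPM. Glutamate receptors held 0.415% ± 0.0161 (Gria2, Gria3, Grin2b and Grm5) and GABA receptors 0.241% ± 0.0171. The share of channels had the smallest spread between libraries among the classes above 1% of counts, relative to its mean.

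Among metabolic classes glycolysis held 0.873, 0.861, 0.717 and 0.719 percent in libraries 1 to 4, with libraries 1 and 2 above libraries 3 and 4. Gapdh, its leading member, had 3247, 3146, 2136 and 2559.7 CPM. The respiratory chain with ATP synthase held 0.824% ± 0.0427, led by Atp5b and Atp5a1, and sodium and calcium pumps 1.03% ± 0.0592, led by Atp2b1. Solute carriers held 1.07% ± 0.0295, and the proteasome and ubiquitin class 0.479% ± 0.0163.

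Ribosomal protein genes held 0.432, 0.431, 0.308 and 0.389 percent in libraries 1 to 4. Library 3 was the lowest and was the highest library for only 1 of 80 members averaging at least 5 CPM, against 26.9% of all 9616 symbols at that level. Translation factors, by contrast, held 0.732% ± 0.01998 and differed little. Rpl10a, the gene of the tagged protein, had 189.5, 211, 141 and 223 CPM, also lowest in library 3. Per kilobase it stood at 416, place 7 of 80 ribosomal protein genes whose median was 115. The counts do not separate reads of the transgene from those of the mouse gene. Of 37 aminoacyl tRNA synthetase genes, Lars2 of the mitochondria had 3691, 3008, 3311 and 2895 CPM and 72.1% of the class, and the next, Nars, averaged 231 CPM. Lars2 was removed with Rn45s and AK140265 in an alternative setting, and the origin of its reads was not tested.

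Genes shared by all spiny projection neurons varied little in sum between libraries. All 21 averaged at least 5 CPM and 20 at least 100 CPM, against 9616 and 2116 of all 32532 symbols. Their summed CPM was 22346, 20679, 21350.2 and 22448 in libraries 1 to 4, a CV of 3.89%. Beside the genes already given, the transcription factor Foxp1 averaged 1452 ± 171 CPM, Bcl11b 975 ± 187 CPM and Meis2 783 ± 93.04 CPM. The small GTPase gene Rasd2 averaged 603 ± 69.01 CPM. Gad2, which makes GABA, had 1607, 1706, 1957 and 2212 CPM, and Gad1 had 285, 238, 236 and 217 CPM. By counts Gad2 exceeded Gad1 5.63, 7.17, 8.297 and 10.2 times in libraries 1 to 4, and per kilobase 10.2 ± 2.49 times on merged exons and 4.902 ± 1.201 times on the longest transcript (SD, n = 4). Of 7 matrix genes 6 averaged at least 100 CPM, among them Sv2b, Gda, Epha4 and Calb1 at 514, 283, 236 and 206 CPM. The other, Rasgrp2, averaged 67.7 CPM. Per kilobase the matrix and striosome lists overlapped, with striosome gene Nnat at 98.2 and matrix genes Cdh8 and Rasgrp2 at 86.3 and 29.0. Striosome genes stayed under 100 CPM in all 9 cases, with Khdrbs3, Sema5b, Nnat and Spon1 at 47.5, 36.4, 33.97 and 29.8 CPM and Oprm1, the mu opioid receptor gene, at 14.2, 18.4, 16.1 and 31.7 CPM. Markers of eccentric projection neurons were lower still, with Otof at 27.2 ± 9.63 CPM, Lypd1, which is also on the striosome list, at 24.8 ± 4.23 CPM and Cacng5 at 12.5 ± 3.74 CPM.

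Some marker lists of other cells differed between libraries by larger factors than the direct and indirect pathway lists. Of the cortical and other glutamate neuron list, 6 of 7 genes averaged at least 1 CPM, and the summed CPM was 62.01, 109, 12.9 and 4.34 in libraries 1 to 4. Library 2 was highest for 6 of those 6 genes, against 23.4% of all 12480 symbols at that level. The mean that sets this level includes library 2. Slc17a6 reached it through that library alone, at 0.463, 7.77, 0.536 and 0.386 CPM. Slc17a7, the vesicular glutamate transporter of cortical neurons, had 20.1, 39.8, 2.28 and 0.965 CPM and Tbr1 17.8, 22.3, 3.35 and 0.289 CPM. Both were highest in library 2, next in library 1 and lowest in library 4. Cck, a peptide of cortical neurons among others, had 33.7, 60.2, 3.88 and 10.3 CPM and so fell in the same 2 pairs of libraries. The part of the glutamate markers in the values of Cck was not tested.

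Endothelial markers showed another order. Their summed CPM was 6.94, 38.1, 76.6 and 19.97 in libraries 1 to 4, and library 3 was highest for 6 of the 6 members averaging at least 1 CPM, against 26.4% of all 12480 symbols at that level. Flt1, a receptor for vascular growth factors, had 2.89, 18.3, 33.7 and 5.69 CPM, Slco1a4 2.43, 5.54, 14.999 and 6.95 CPM and Kdr 0.694, 3.73, 9.37 and 3.18 CPM. Cldn5, a tight junction gene, was near the floor except in library 2, at 0, 1.81, 0.134 and 0.0965 CPM. The mural cell and fibroblast list summed to 1.97, 13.4, 33.3 and 4.92 CPM, with Rgs5, a pericyte gene, at 1.04, 7.45, 23.3 and 4.15 CPM. Libraries 3 and 2 had the highest sums of both vascular lists and library 1 the lowest.

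Astrocyte markers summed to 329, 486, 359 and 300.3 CPM, and library 2 was highest for 6 of 10 genes, all averaging at least 1 CPM, against 23.4% of all 12480 symbols at that level. The mean that sets this level includes library 2, and Gfap, one of those genes, reached it only with that library. Slc1a2, the glutamate transporter of astrocytes, had 197, 321, 214 and 174 CPM. By mean CPM it exceeded Pdyn (226 against 207), though not in library 1 (197 against 242). Per kilobase of merged exons it was lower than Pdyn, at 91.8 ± 27.4 against 381 ± 71.1 (SD, n = 4 each). Glul hardly varied, at 93.02, 109.8, 105 and 105 CPM, and Gfap had 1.504, 5.96, 0.268 and 0.0965 CPM. Oligodendrocyte markers summed to 162, 198, 168 and 122 CPM. Mbp had 95.9, 93.2, 105 and 75.4 CPM, while Mog stayed at or under 0.426 CPM in every library. Microglial markers were almost absent, with a summed 1.27, 4.37, 2.81 and 0.965 CPM, no member averaging 1 CPM, and Tmem119 and C1qa without a count. Of the cholinergic interneuron list only Chat averaged at least 1 CPM, at 0.231, 1.597, 0.937 and 2.12 CPM, and Slc18a3 and Gbx2 had no count. GABA interneuron markers were led by Sst and Nos1, the latter at 14.7, 28.5, 11.9 and 8.202 CPM, and Vip and Pthlh had no count. The dopamine neuron list was led by Slc18a2, at 5.9004, 6.82, 2.54 and 8.299 CPM, and Th, its defining enzyme, had 0.8099, 2.56, 0 and 2.61 CPM.

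**Figure D4:**
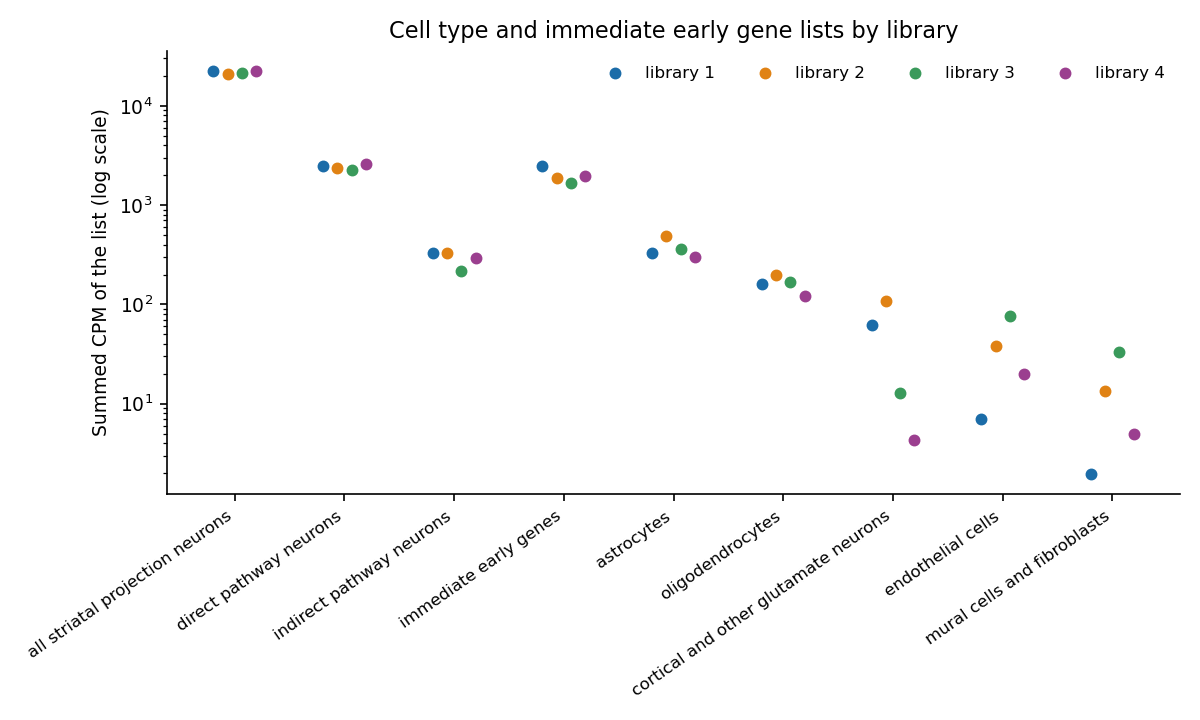
Summed CPM of 9 gene lists on a log scale, 1 point per library. The 4 lists on the left vary within 1.54-fold, while the glutamate neuron list differs 25.2-fold, the endothelial list 11.04-fold and the mural list 17.0-fold between libraries.

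Activity-regulated genes were highest in library 1. Of 13 immediate early genes 12 averaged at least 1 CPM, and library 1 was highest for 10 of them, against 21.4% of all symbols at that level. Egr1 had the most counts, at 1689.7, 1407, 1284 and 1434 CPM, rank 61 of all symbols. Nr4a1 had 243, 108, 81.7 and 104 CPM, Fosb 111, 58.995, 36.03 and 69.9 CPM and Arc, whose product acts at active synapses, 116, 68.05, 45.1 and 74.8 CPM. Fos, the most used marker of recent activity, was low, at 12.03, 4.15, 5.22 and 4.05 CPM, and Npas4 had 28.3, 13.4, 8.97 and 9.07 CPM and Junb 27.2, 10.3, 11.2 and 13.5 CPM. Library 1 was thus 2.26 times the next highest library for Nr4a1, 2.30 times for Fos and 2.01 times for Junb. Egr2 averaged 51.4 ± 13.3 CPM and Egr4 37.6 ± 10.3 CPM, both highest in library 1. The exceptions were Jun, highest in library 3 at 9.83, 10.8, 17.1 and 4.92 CPM, and Dusp1, highest in library 4 at 138, 98.3, 96.02 and 154 CPM. The labels give no handling or time of dissection that could be set beside this, and its source was not tested.

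The bases before the starts of 3 of these genes are shown because the genes were highest together in library 1. They are RefSeq promoters of GRCm38.p6, 250 bases ending at the base before the start, 5′ to 3′ on the gene's strand. Copies of TGACG or its reverse complement CGTCA, the CREB core, are in capitals. Fos is chr12:85473640-85473889 on the plus strand, Nr4a1 chr15:101266596-101266845 on the plus strand and Junb chr8:84978749-84978998 on the minus strand.
Fos: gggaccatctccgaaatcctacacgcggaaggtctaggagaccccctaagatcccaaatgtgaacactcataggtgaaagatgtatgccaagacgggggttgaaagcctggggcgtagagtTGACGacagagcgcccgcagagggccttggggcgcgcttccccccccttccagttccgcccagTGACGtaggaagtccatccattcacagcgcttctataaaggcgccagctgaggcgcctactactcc
Nr4a1: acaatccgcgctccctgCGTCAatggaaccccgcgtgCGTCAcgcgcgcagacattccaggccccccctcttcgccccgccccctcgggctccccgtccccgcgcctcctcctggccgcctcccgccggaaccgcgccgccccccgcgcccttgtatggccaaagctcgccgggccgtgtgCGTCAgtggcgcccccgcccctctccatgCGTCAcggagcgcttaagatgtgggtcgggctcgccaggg
Junb: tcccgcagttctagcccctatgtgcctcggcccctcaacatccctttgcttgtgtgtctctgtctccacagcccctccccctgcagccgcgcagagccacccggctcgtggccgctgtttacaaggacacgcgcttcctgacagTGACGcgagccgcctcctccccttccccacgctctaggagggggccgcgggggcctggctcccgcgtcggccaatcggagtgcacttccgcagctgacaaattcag
Fos holds 2 copies, Nr4a1 4 and Junb 1. Of 10 immediate early genes with a RefSeq promoter 8 hold at least 1 copy in this window, as do 29.9% of 7210 genes averaging at least 5 CPM and 17.9% of all 27025 genes with one, each taken with 1 promoter. Of 8 direct pathway genes 3 do. A match describes the letters and is not evidence of binding.

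The spread between libraries was smaller for abundant genes. Over the 9616 symbols averaging at least 5 CPM the median CV was 21.6%, and it was 33.8% for those at 5 to 20 CPM, 19.8% at 20 to 100 CPM, 13.2% at 100 to 1000 CPM and 11.8% above. Counting alone would give medians of 10.3%, 5.18%, 2.45% and 0.839% in these ranges. The common biological coefficient of variation (BCV), the spread beyond counting that edgeR estimates over all of these genes with no group term, was 0.285. The smallest BCVs belonged to Snap25, Rab6b, Cplx2, Malat1, Gnao1, Prrc2c, Gnal, Atp2a2, Atp2b2 and Map1b. All of them are among the 105 symbols averaging at least 1000 CPM. Rab6b, a small GTPase of Golgi traffic, had 2194, 2181, 2233 and 2128 CPM, a CV of 1.98%.

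The largest BCVs among symbols averaging at least 20 CPM belonged in part to vascular genes. Ptprb, the phosphatase of vascular endothelium, had 2.89, 28.5, 89.3 and 4.92 CPM and a BCV of 0.666. Adgrf5 had 1.62, 16.6, 72.3 and 11.8 CPM, Epas1, a hypoxia-inducible factor abundant in endothelium, 7.52, 53.6, 72.1 and 20.3 CPM and Heg1 13.2, 29.3, 49.4 and 5.02 CPM. All 4 were highest in library 3 and second highest in library 2, as were the summed endothelial and mural markers, and the part of those markers in these values was not tested. Cck had a BCV of 0.535 and, like the glutamate markers, was higher in libraries 1 and 2 than in libraries 3 and 4. Slc9a8 had 22.1, 38.1, 15.7 and 5.31 CPM and Sez6l 28.1, 38.8, 8.84 and 13.4 CPM, both highest in library 2.

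The remaining genes of that group are on none of the marker lists. Prpf40b and Polr1c, like the vascular genes, were highest in library 3 and second highest in library 2. Ext2 had the library order of the summed glutamate list. The part of any markers in these values was not tested. Elavl4, an RNA-binding protein of neurons, had 9.02, 15.02, 58.9 and 29.1 CPM, Nsun3, a mitochondrial tRNA methyltransferase, 13.8, 10.4, 57.2 and 29.1 CPM and Prpf40b 19.9, 22.9, 59.2 and 11.2 CPM, all highest in library 3. Polr1c, a subunit shared by RNA polymerases I and III, had 18.9, 21.9, 45.5 and 8.11 CPM. Tnip1 had 15.5, 18.8, 8.57 and 49.1 CPM and was highest in library 4. Ext2, a heparan sulfate polymerase, had 87.7, 91.8, 48.3 and 11.4 CPM and was lowest there. Preb had 23.6, 77.6, 18.9 and 23.3 CPM, with library 2 alone high.

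**Figure D5:**
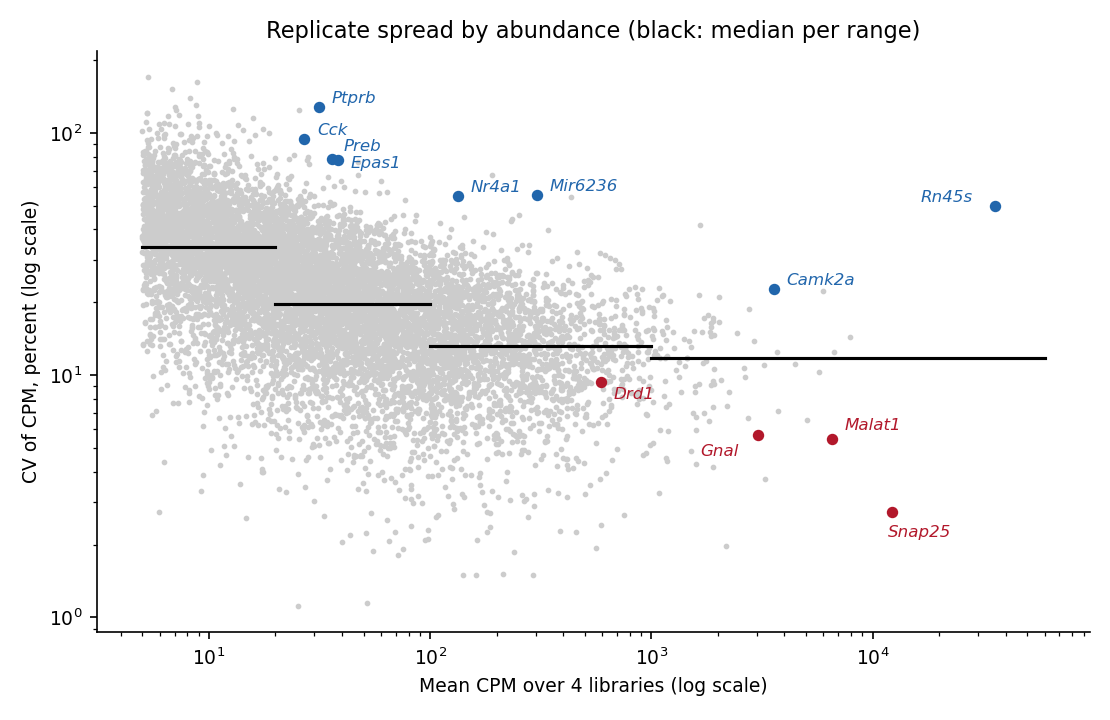
CV of CPM over the 4 libraries against mean CPM, both on log scales, for 9616 symbols averaging at least 5 CPM. Black lines are the median CVs per range of abundance, and blue and red points are genes named in the text. Ptprb, Cck, Epas1 and Preb lie far above them, and Snap25, Malat1 and Gnal below.

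Libraries 3 and 4 carried more genes that stood apart than libraries 1 and 2. A symbol averaging at least 5 CPM was at least 2-fold above all other libraries in library 1 for 29 genes, in library 2 for 30, in library 3 for 119 and in library 4 for 93. It was at least 2-fold below all others for 64, 12, 294 and 190 genes. Libraries 3 and 4 were the ones with the fewest and the most gene counts. Without library 3 the common BCV was 0.257, and without library 4 it was 0.268. Y-linked genes were found in every library, with Ddx3y at 41.2, 28.3, 40.6 and 37.6 CPM, Kdm5d at 25.9, 28.4, 32.1 and 20.6 CPM, Eif2s3y at 13.5, 17.4, 7.77 and 10.2 CPM and Uty at 10.4, 13.95, 14.7 and 8.49 CPM, and Xist stayed between 0 and 0.745 CPM.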

How the data were processed

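Ribosome-bound RNA of 4 dorsal striatum libraries was analysed, each assigned by its title. The submitters' processing notes name STAR 2.0.0e, HTSeq and mm10, whereas for annotation, strand and read filters nothing is given in the sources used here. Each deposited file lists whole-number read counts by gene symbol, taken as not normalized because they are whole and differ in total. The files also hold totals of reads not assigned to a gene, 27.1% to 33.8% of each library, 9.96% to 15.6% for several alignments; these were left out, so near-identical genes are uncertain.

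Counts were divided by each library's gene counts and multiplied by 1000000 (CPM). Levels between genes used merged exon length from GENCODE M21 (GRCm38, shares mm10 coordinates, 1-based), known for 23929 of 32532 symbols, 768 of them through a RefSeq synonym; 39 symbols that GENCODE types as noncoding and RefSeq as protein-coding were taken as protein-coding. Of 272 named or listed genes with a position 76 have an exon overlapping another gene, 64 on the opposite strand. The biological coefficient of variation came from edgeR 4.0.16 in R 4.3.3 with an intercept only, for symbols averaging at least 5 CPM; the script was tested on simulated data. With 1 group no comparison between groups was tested, and Dixon's criterion only marked values with a library apart. Intervals and floors cover counting error only. Counts of genes highest in 1 library took genes by their mean over the same 4 libraries. A gene could therefore enter through that library alone.

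The libraries, gene lists and classes were chosen with earlier results of these data known. Named genes were the 5 markers, the first 20 by CPM and per kilobase, up to 4 leading members of each list and class, all pathway, dopamine receptor, neuropeptide and sex-linked genes, the 15 largest and 10 smallest BCVs at 20 CPM or more and the 10 leading noncoding genes. Other listed genes, such as the lesser members of the D1 cascade and of the cell type and immediate early lists, were named after their values were seen, as were the promoters shown. Some genes that the rule names are not reported here. Alternatives were TMM and DESeq2 1.42.0 size factors, other filters and lengths, 3 abundant symbols removed, thinning, and each library left out.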

Additional observations from a re-analysis of the deposited data

Results flagged for a closer look

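Of 251 values compared over the 4 libraries, 7 had 1 library whose gap to the nearest other was, relative to the whole range, above Dixon's 95% value for 4 samples, 2.79% of them, and chance gives about 1 in 20. Camk2a, a kinase of excitatory synapses, had 2362 CPM in library 1 against 3952 to 4020 CPM in the others. Nr4a1 had 243 CPM there against 81.7 to 108 CPM and Fos 12.03 CPM against 4.05 to 5.22 CPM. Kremen1, on the striosome list, had 15.97 CPM in library 1 against 5.98 to 6.56 CPM. Preb stood at 77.6 CPM in library 2 against 18.9 to 23.6 CPM. In library 4 Cplx2 was high, at 3451 CPM against 3199 to 3215 CPM, while the chaperone gene Hsp90ab1 was low, at 1408 CPM against 2021 to 2107 CPM. Library 3, which had the most genes at least 2-fold apart, is in none of these.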

How the results depend on the processing

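Of 2401 alternative values 2323 moved by less than 1 SD between libraries or, for counts of genes, by less than 1.5 times. Leaving out 1 library gave 1393 of these, and for a mean over 4 libraries that step cannot reach 1 SD. Other settings gave 930 values within these limits and 75 beyond. A turn of direction was not scored. Tac1 exceeded Penk by CPM and was below it on both length scales. With either set of size factors, or without Rn45s, Lars2 and AK140265, the CPM of the 5 markers moved by less than 1 SD. Without Rn45s, Lars2 and AK140265 the top 10, 100 and 1000 genes held 6.50%, 21.7% and 59.4%, 637 genes held 50%, Pde10a ranked 15.5 on average, and protein-coding genes held 97.6% and vesicle release 3.67%. Per kilobase of merged exon the top 1000 held 58.9% and 622.5 genes 50%, and Drd1, Tac1, Pdyn, Ppp1r1b and Pde10a had mean ranks of 130.8, 326, 436, 21 and 87.5. With the longest transcript these were 58.4%, 646.8 genes and ranks of 185, 224, 499.8, 18 and 58.2, and Tac1 over Penk was 0.881. As length-scaled counts protein-coding genes held 97.2%, calmodulins 4.63%, ribosomal proteins 1.23%, phosphatases 1.79% and vesicle release 3.16%. All length-scaled values leave out the 8603 symbols with no exon length, Rn45s and AK140265 among them. Shares on that scale, that of protein-coding genes above all, therefore differ by the symbols included as well as by length. The common BCV was 0.397 at 1 CPM or more and 0.486 at 1 count or more, and the median CV 26.5% and 41.3%. Leaving out 1 library gave BCVs of 0.257 to 0.314 and median CVs of 18.6% to 22.1%. Low genes are limited by depth, and 8364 genes reached 5 CPM in every library. No paired analysis was possible because only 1 group was described, with no comparison between groups.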

Other observations

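Antigen presentation and interferon genes were low in these libraries. Of 10 genes 5 averaged at least 1 CPM, against 12480 of all 32532 symbols. B2m, the light chain of MHC class I, had 6.13, 7.88, 8.303 and 5.597 CPM in libraries 1 to 4 and H2-D1 5.09, 6.71, 15.4 and 2.12 CPM, while Irf7, Isg15, Bst2 and Ifit1 stayed at or under 0.532 CPM in every library. H2-D1 was highest in library 3, as the vascular markers were, and their part in it was not tested.

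Genes of neuroblasts and dividing cells were present at low levels. Sox11 had 18.2, 35.1, 34.4 and 45.6 CPM, Dcx 17.4, 30.6, 11.9 and 22.8 CPM and Mki67 2.89, 5.11, 9.37 and 6.95 CPM, whereas Top2a, another gene of dividing cells, stayed at or under 0.937 CPM. Of the ependymal and choroid plexus list only Kl averaged at least 1 CPM, at 5.78, 6.82, 4.82 and 8.01 CPM, and Ttr, the defining transcript of choroid plexus, had at most 0.426 CPM. Vcan led the precursor list of oligodendrocytes at 10.99, 4.79, 10.4 and 5.79 CPM, with Pdgfra at 3.36, 0.639, 0.536 and 0.193 CPM.

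Levels of short and long transcripts differed between libraries. As log2 of CPM plus 1 over its mean in the 4 libraries, the median of the 3094 shortest of 9282 protein-coding genes was 0.07, -0.01, -0.15 and 0.00 in libraries 1 to 4, and that of the longest 3094 was -0.09, 0.01, 0.04 and -0.01. The 3094 genes of highest GC content stood at 0.05, 0.08, -0.12 and -0.11. Library 3, lowest for short genes, was also lowest for the ribosomal protein genes, which are short, and the part of length in that was not tested.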
